A study of Homo sapiens with 4 samples.

Results

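The genes of oxidative phosphorylation were examined in IFN-γ-treated gastric cancer cells that carried a control vector or a YTHDF1 vector. Members were taken by symbol among the protein-coding rows of the deposited table. They were the subunits that mitochondrial DNA encodes (ND1 to ND6, ND4L, COX1 to COX3, CYTB, ATP6 and ATP8) and the nuclear genes named NDUFA, NDUFB, NDUFC, NDUFS or NDUFV with a number, SDHA to SDHD, UQCR, CYC1, COX4 to COX8 or ATP5. This gave 101 of the 46427 genes listed, of which 13 were mitochondrial and 88 nuclear. The nuclear genes comprised 36 of complex I, 4 of complex II, 10 of complex III, 18 of complex IV and 20 of complex V. NDUFA4 was placed in complex IV, where its protein is now known to sit, and CYC1 in complex III.

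Oxidative phosphorylation makes most of the ATP of a respiring cell. Complexes I and II pass electrons to ubiquinone, complex III passes them to cytochrome c and complex IV to oxygen, and complex V, the ATP synthase, uses the proton gradient that complexes I, III and IV build. Complexes I, III, IV and V are mosaics of both genomes, whereas complex II is wholly nuclear. The mitochondrial genes are copied as long transcripts from both strands, cut into single messages mainly at the tRNAs between them, and mostly given short poly(A) tails, while each nuclear gene has its own promoter.

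SNU638, an established human gastric cancer line, was sequenced with the control vector (2 libraries) and with the YTHDF1 vector (2 libraries), each numbered as biological replicates 1 and 2. YTHDF1 is a cytoplasmic reader of N6-methyladenosine in RNA. All 4 libraries came from cells that had gone 24 h without serum and were then given IFN-γ at 10 ng/ml, so there were no untreated cells. The labels state 8 h of IFN-γ, which differs from the time in the study's legends. The study's methods describe transfection of plasmids, and the labels do not state whether the cells of each vector came from 1 clone. A stranded mRNA kit was used, which selects poly(A) tails, and total counts ran from 57398137 to 60864942. Levels are given in CPM, the count scaled to a fixed library size after TMM, and a pair of values always names replicate 1 first and replicate 2 second. YTHDF1 itself measured 82.2 and 80.3 CPM in control and 16494 and 2628 CPM with the YTHDF1 vector. YTHDF1 was thus raised in both YTHDF1 libraries, but to unequal levels. The epithelial markers EPCAM (242 to 284 CPM) and KRT8 (2081 to 3818 CPM) were present, while PTPRC of leukocytes, CD3E of T cells and PECAM1 of endothelium stayed at or under 0.323 CPM. CD14 of monocytes reached 0.690 CPM, and COL1A1, a collagen gene of fibroblasts, measured 10.7 and 5.69 CPM in control and 10.9 and 5.81 CPM with YTHDF1.

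Of the 101 members, 95 passed the filter on low counts, namely all 13 mitochondrial and 82 nuclear genes, among 17781 genes tested. The remaining 6 were COX4I2, COX6A2, COX7A1 and COX7B2 with 0 counts in every library, COX8C with 2 counts in control replicate 1 and none elsewhere, and ATP5MGL with 3 counts in control replicate 1 and none elsewhere. A count of 0 allows up to 3 counts, or 0.0497 to 0.0529 CPM in these libraries. These are tissue-restricted or recently copied forms of complex IV and V subunits, and no difference could be measured for them at this depth.

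Where the mitochondrial reading frames overlap, a read can belong to either message, and this bears on the values of ATP8, ATP6, ND4L and ND4. By GENCODE 29 on GRCh38, ATP8 and ATP6 share 46 bases at chrM:8527-8572 and ND4L and ND4 share 7 bases at chrM:10760-10766, both on the plus strand. The shared stretches are given here with the start codon of the downstream gene (ATP6 or ND4) in capitals.
ATP8 and ATP6: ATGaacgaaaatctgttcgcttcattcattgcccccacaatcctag
ND4L and ND4: ATGctaa
ATP6 and COX3 share a single base, position 9207. ND6, at chrM:14149-14673, is the sole member read from the opposite strand. The strand setting of the counting is not given in the sources used here, so RNA of the other strand cannot be told from ND6 by its count.

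The nuclear members have separate promoters, and these were searched for letters bound by factors known for respiratory genes. Of the 82 nuclear members tested, 67 matched a start site in RefSeq (GRCh38.p14), and windows from 250 bases before to 50 bases after the start were read on both strands. The NRF1-like letters GCGCATGC stood in 14 of the 67 (20.9%), against 4.94% of 15515 protein-coding genes. The ETS-like letters CCGGAAG, to which GABPA can bind, stood in 21 (31.3%), against 16.8%, and the YY1-like letters AAGATGGC in 12 (17.9%), against 4.72%. The ETS-like letters end as the YY1-like letters begin (AAG), so both can share letters in a window, and each share describes windows and not binding. The 250 bases upstream of an NRF1-holding member of each of complexes I, II and IV are shown because these members are called or compared below, with motif letters of either strand in capitals. They are NDUFS6 (chr5:1801157-1801406, plus strand), SDHB (chr1:17054033-17054282, minus strand) and COX6A1 (chr12:120437863-120438112, plus strand).
NDUFS6: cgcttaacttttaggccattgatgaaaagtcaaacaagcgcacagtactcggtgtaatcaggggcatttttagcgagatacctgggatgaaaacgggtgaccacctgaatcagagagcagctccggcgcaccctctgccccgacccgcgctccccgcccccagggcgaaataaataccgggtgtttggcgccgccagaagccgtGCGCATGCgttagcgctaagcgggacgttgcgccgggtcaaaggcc
SDHB: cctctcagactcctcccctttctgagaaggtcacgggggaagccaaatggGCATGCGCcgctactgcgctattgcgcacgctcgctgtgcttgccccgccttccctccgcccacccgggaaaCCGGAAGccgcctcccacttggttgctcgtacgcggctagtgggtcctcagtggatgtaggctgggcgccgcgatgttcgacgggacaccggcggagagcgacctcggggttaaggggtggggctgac
COX6A1: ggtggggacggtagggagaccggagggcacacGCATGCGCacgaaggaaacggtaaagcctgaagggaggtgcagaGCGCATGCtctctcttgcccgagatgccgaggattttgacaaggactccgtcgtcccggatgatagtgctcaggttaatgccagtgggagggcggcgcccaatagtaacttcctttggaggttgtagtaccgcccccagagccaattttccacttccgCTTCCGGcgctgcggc
NDUFS6 holds the NRF1-like letters once, SDHB holds them once together with the ETS-like letters, and COX6A1 holds them on each strand together with the ETS-like letters.

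Per kilobase of transcript, mitochondrial messages were far more abundant than nuclear ones. The median level over the 4 libraries was 6254 CPM per kb for the 13 mitochondrial messages and 70.2 CPM per kb for the 82 nuclear genes. COX2 (10319 CPM per kb) and COX1 (9630 CPM per kb), the catalytic subunits of cytochrome c oxidase, had the 2 highest levels, and ND6 (197 CPM per kb) had the lowest mitochondrial level, below the 269 CPM per kb of nuclear UQCRH. By complex, the mitochondrial medians were 2489 CPM per kb in complex I, 9630 in complex IV and 6988 in complex V, with CYTB of complex III at 1844. The nuclear medians were 55.6 CPM per kb in complex I, 135 in complex II, 57.1 in complex III, 121 in complex IV and 94.3 in complex V. These values depend on the transcript length used, such as 460 bases for SDHC and 8363 for NDUFA9. The order of the complexes does too, above all for complex II with its 4 genes. ATP5F1B, the catalytic beta subunit of ATP synthase, was the highest nuclear member at 559 CPM per kb, and UQCRHL, an intronless copy of UQCRH, was the lowest at 0.236. Reads of UQCRHL and UQCRH may not be separable by the counting.

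**Figure D1:**
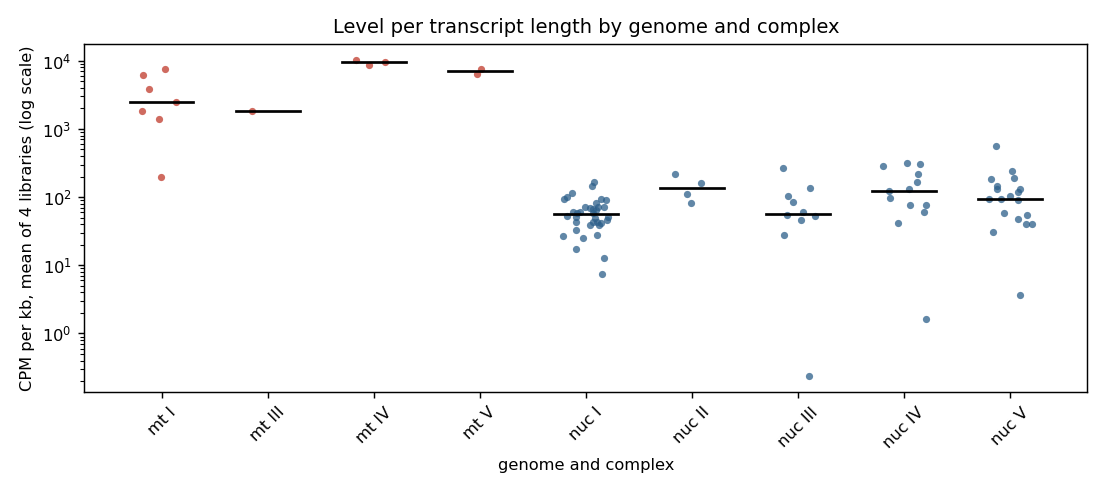
Mean level of each tested member in CPM per kb of transcript (vertical log axis) by genome and complex (horizontal axis, mt for mitochondrial and nuc for nuclear); each point is 1 gene averaged over 4 libraries and black lines are medians. The mitochondrial messages other than ND6 (197) lie above every nuclear gene, of which ATP5F1B is the highest at 559.

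The first comparison asked whether the RNA of either genome differed between the vectors. All 13 mitochondrial messages were lower in the YTHDF1 library than in the control library within replicate 1 and within replicate 2, whereas the nuclear members were spread around 0. Mitochondrial messages took 5.84% and 6.85% of all counts in control, and 5.20% and 5.64% with YTHDF1. Both control libraries lay above both YTHDF1 libraries, with means of 6.34% ± 0.715 and 5.42% ± 0.316 (SD, n = 2 each). The difference was -0.92 percentage points in all, -0.64 within replicate 1 and -1.20 within replicate 2. YTHDF1 itself took 1.66% and 0.26% of counts with its vector, which lowers other shares there. With YTHDF1 left out of the totals the difference in all was -0.87 points. The exact permutation test gave p = 0.333 (two-sided), the smallest that 2 against 2 libraries allow, so this design cannot pass 0.05. The counting error was small beside these differences, since the 95% Wilson intervals of the shares were 0.0114 to 0.0131 percentage points wide. Poly(A)-selected bulk RNA cannot tell fewer mitochondria or cells of a kind from less RNA in each.

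The nuclear members took 0.819% and 0.811% of counts in control, and 0.794% and 0.834% with YTHDF1. These groups overlapped, with means of 0.815% ± 0.00533 and 0.814% ± 0.0282 (SD, n = 2 each, exact permutation p = 1). The ratio of mitochondrial to nuclear counts, which does not depend on library size, was 7.13 and 8.44 in control, and 6.55 and 6.77 with YTHDF1. On the log2 scale the ratio was lower with YTHDF1 by a difference of -0.22, or -0.12 within replicate 1 and -0.32 within replicate 2, with no overlap between groups (exact permutation p = 0.333, two-sided).

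**Figure D2:**
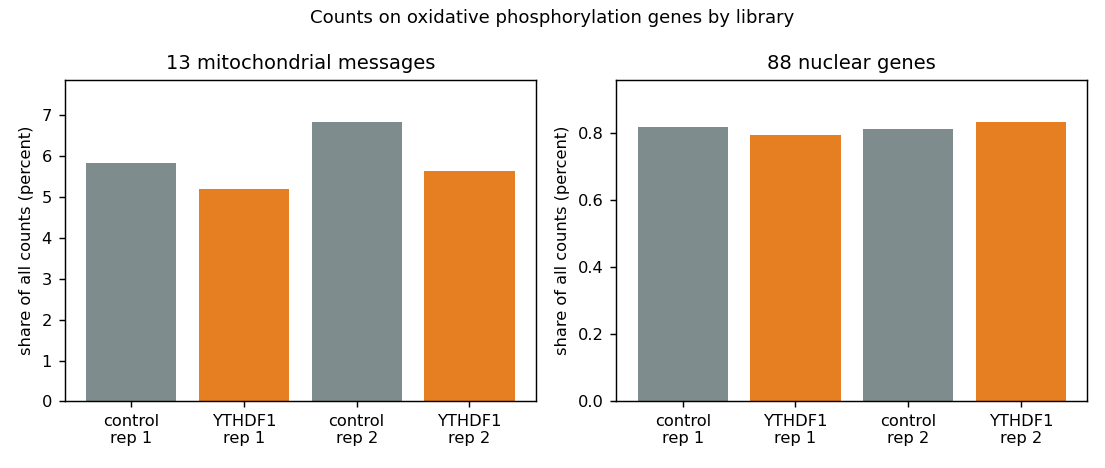
Share of all counts (percent, vertical axis from 0) on the 13 mitochondrial messages (left) and the 88 nuclear genes (right) in each library, with bars in gray for control and orange for YTHDF1. On the left both YTHDF1 bars (5.20 and 5.64) are under both control bars (5.84 and 6.85), and on the right the groups overlap.

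The same ratio was then taken within complexes that hold both kinds of subunit. In complex IV the log2 ratio was 4.43 and 4.62 in control and 4.32 and 4.23 with YTHDF1, a difference of -0.25. In complex V it was 1.13 and 1.40 in control and 0.98 and 1.04 with YTHDF1, also a difference of -0.25. Neither of these overlapped between groups (exact permutation p = 0.333 for each). In complex I the difference was -0.16, from 3.18 and 3.47 in control to 3.10 and 3.23 with YTHDF1. In complex III it was -0.23, from 0.92 and 1.35 to 0.79 and 1.03. Complexes I and III overlapped between groups, because control replicate 1 lay below YTHDF1 replicate 2 (exact permutation p = 0.667 for each), although within each number the YTHDF1 library was the lower in all 4 complexes.

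Among the mitochondrial messages of complex IV, COX1 (NCBI Gene ID 4512, chrM:5904-7445), which carries the oxygen-reducing site, measured 15542 and 17589 CPM in control and 13218 and 13048 CPM with YTHDF1. Its log2 fold change was -0.34 (SE 0.14, edgeR quasi-likelihood test without a term for the replicate number, unadjusted p = 0.0779). The difference was -15.0% within replicate 1 and -25.8% within replicate 2. COX2, which receives electrons from cytochrome c, measured 6931 and 7776 CPM in control and 6670 and 6855 CPM with YTHDF1 (log2 fold change -0.12, SE 0.13). COX3, the third core subunit, measured 6868 and 7515 CPM in control and 6052 and 6326 CPM with YTHDF1 (log2 fold change -0.22, SE 0.12). For each of these 3 messages both YTHDF1 libraries lay below both control libraries.

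In complex V, ATP6, which forms the proton path beside the rotor, measured 5106 and 5931 CPM in control and 4592 and 4776 CPM with YTHDF1 (log2 fold change -0.24, SE 0.14). ATP8, its small partner in the membrane stator, measured 1348 and 1618 CPM in control and 1130 and 1273 CPM with YTHDF1 (log2 fold change -0.30, SE 0.15). These genes share the 46 bases shown above and neither overlapped between groups. CYTB, the cytochrome b of complex III and its sole mitochondrial subunit, measured 2007 and 2541 CPM in control and 1776 and 2090 CPM with YTHDF1 (log2 fold change -0.23, SE 0.18). There YTHDF1 replicate 2 lay above control replicate 1, so the groups overlapped.

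In complex I the mitochondrial genes encode the membrane arm that pumps protons. ND6 (NCBI Gene ID 4541) measured 112 and 116 CPM in control and 96.9 and 89.3 CPM with YTHDF1, with means of 114 ± 2.52 and 93.1 ± 5.36 (SD, n = 2 each). Its log2 fold change was -0.29 (SE 0.09, edgeR unadjusted p = 0.0324, adjusted p = 1.00), and it was the single member with an unadjusted p under 0.05 at any fold in this fit, which has no term for the replicate number. ND5, one of the antiporter-like pump subunits, measured 2561 and 2917 CPM in control and 2340 and 2344 CPM with YTHDF1 (log2 fold change -0.23, SE 0.12). ND5 and ND6 lie next to each other on opposite strands and were the pair of complex I whose groups did not overlap.

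The other 5 mitochondrial messages of complex I overlapped between the vectors, since their libraries differed more by replicate number. ND4, the message of complex I with the highest level, measured 9414 and 12878 CPM in control and 8792 and 11041 CPM with YTHDF1. ND2 measured 3479 and 5086 CPM in control and 3358 and 4344 CPM with YTHDF1. ND1, which lies at the junction of the membrane and matrix arms, measured 1650 and 2184 CPM in control and 1447 and 1788 CPM with YTHDF1. ND4L and ND3, small membrane subunits, had log2 fold changes of -0.16 (SE 0.24) and -0.07 (SE 0.14). The log2 fold changes of ND1, ND2 and ND4 were -0.25 (SE 0.21), -0.15 (SE 0.27) and -0.17 (SE 0.24). Within a number, each of these 5 was lower with YTHDF1 both times, by log2 differences from -0.05 (ND2, replicate 1) to -0.29 (ND1, replicate 2).

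**Figure D3:**
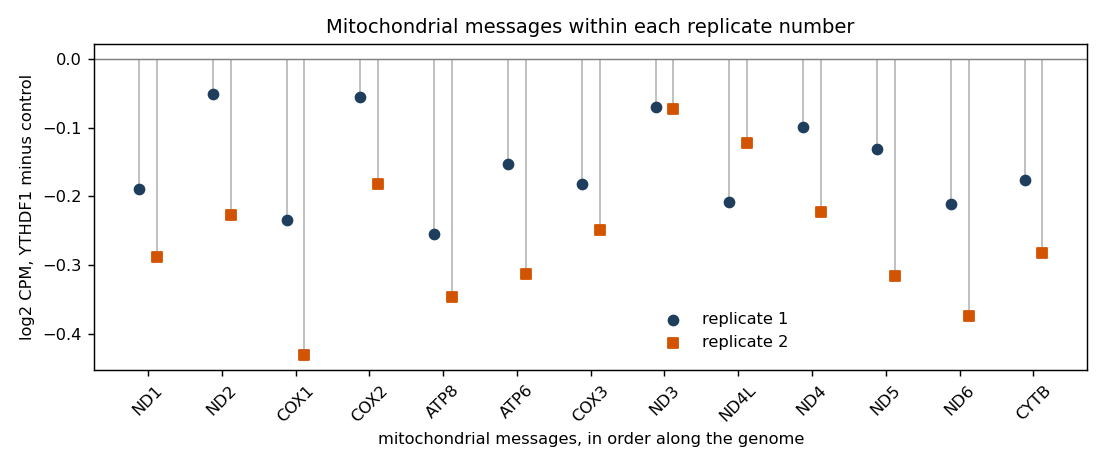
Difference in log2 CPM between the YTHDF1 and the control library (vertical axis) for the 13 mitochondrial messages in their order along the mitochondrial genome (horizontal axis), with circles for replicate 1 and squares for replicate 2. All 26 points lie below 0, and COX1 in replicate 2 is the lowest at -0.43.

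Over all 13 mitochondrial messages the median log2 fold change was -0.23, or -0.18 within replicate 1 and -0.28 within replicate 2. Over all 17781 genes it was 0.0046. Being lower within both numbers held for 13 of 13, against 24.5% of all genes tested, and not overlapping between groups with YTHDF1 lower held for 7 of 13, against 5.83%. Mitochondrial messages share a precursor and cannot be read as 13 independent observations. With both a fold change past 0.5 on the log2 scale, in either direction, and an unadjusted p under 0.05, 0 of the 95 members were called, against 0.101% of all genes, and at any fold 1 was, against 0.135%. In that fit 0 genes passed an adjusted p under 0.05, and DESeq2's Wald test gave 3 mitochondrial members with an unadjusted p under 0.05. The mitochondrial median depended on single libraries in size, since it was -0.06 without control replicate 2, -0.12 without YTHDF1 replicate 1, -0.33 without YTHDF1 replicate 2 and -0.34 without control replicate 1.

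The nuclear members were lower within both numbers in 14 of 82 and higher within both in 13 of 82, shares under the 24.5% and 25.9% of all genes tested. Their median log2 fold change was 0.0016, at -0.03 within replicate 1 and 0.03 within replicate 2. Every nuclear complex had a median below 0 within replicate 1 and above 0 within replicate 2. The medians ran from -0.06 (complex IV) to -0.0047 (complex II) in replicate 1, and from 0.02 (complex I) to 0.06 (complex IV) in replicate 2. Lower within both numbers were 6 of 36 nuclear genes of complex I, 1 of 4 of complex II, 1 of 10 of complex III, 4 of 13 of complex IV and 2 of 19 of complex V.

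**Figure D4:**
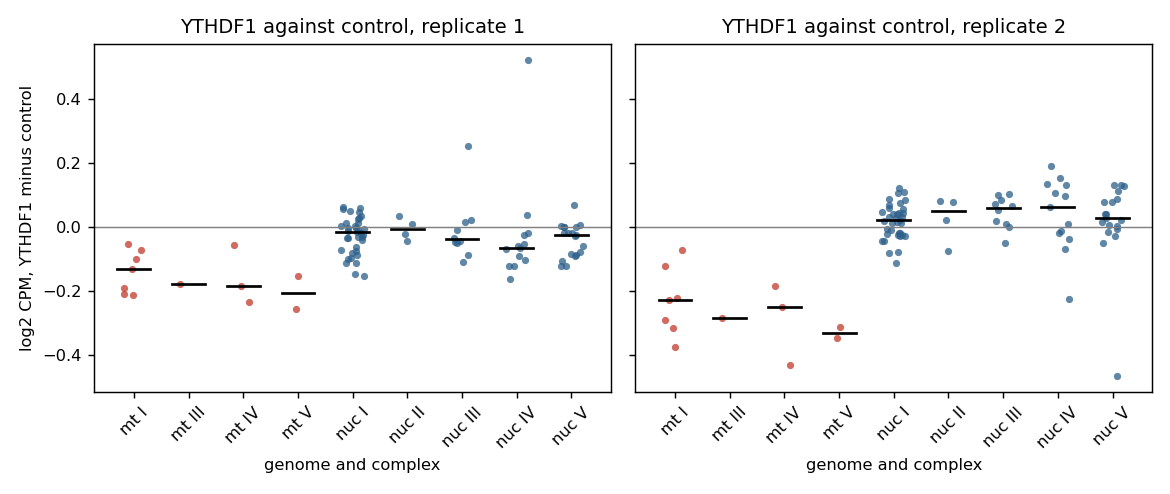
Difference in log2 CPM between the YTHDF1 and the control library (vertical axis) for each tested member by genome and complex (horizontal axis), in replicate 1 (left) and replicate 2 (right); each point is 1 gene and black lines are medians. All mitochondrial points are below 0 in both panels, and the nuclear medians lie between -0.06 and 0.06.

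Extremes of the nuclear complexes were within their standard errors in this fit, which has no term for the replicate number. In complex I the highest log2 fold change was that of NDUFB11 at 0.06 (SE 0.11) and the lowest that of NDUFB8 at -0.06 (SE 0.16), both accessory subunits of the membrane arm. In complex II they were SDHC, a membrane anchor, at 0.06 (SE 0.11), and SDHB, the iron-sulfur subunit, at -0.06 (SE 0.12). SDHB measured 91.2 and 104 CPM in control and 88.5 and 98.7 CPM with YTHDF1, so that the groups overlapped. In complex III UQCRHL was highest at 0.13 (SE 0.39) and UQCRB, an accessory subunit that helps to bind ubiquinone, lowest at -0.08 (SE 0.20). In complex IV COX8A was highest at 0.05 (SE 0.20) and COX7B lowest at -0.06 (SE 0.12), both small subunits. In complex V ATP5F1D, the delta subunit of the central stalk, was highest at 0.06 (SE 0.19). The read-through ATP5MF-PTCD1, which joins the ATP synthase gene ATP5MF to its neighbour PTCD1 and shares exons with both, was lowest at -0.20 (SE 0.30). With a term for the replicate number, UQCRB stood at -0.08 (SE 0.05), beyond its SE, and UQCRHL at 0.13 (SE 0.41), within it. In that edgeR fit 0 nuclear members had an unadjusted p under 0.05, against 334 lower and 340 higher genes of all 17781.

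Groups did not overlap for 3 nuclear genes, which are named here after their values were seen. ATP5IF1, the inhibitor that stops ATP synthase from running in reverse, measured 59.1 and 55.5 CPM in control and 54.4 and 55.0 CPM with YTHDF1, and was the 1 lower gene, against 5.83% of all genes. UQCR10, a small subunit of complex III, measured 39.8 and 38.5 CPM in control and 40.5 and 40.4 CPM with YTHDF1. UQCRHL measured 0.454 and 0.529 CPM in control and 0.543 and 0.530 CPM with YTHDF1, and these 2 were the higher genes, against 5.65%. The counts of UQCRHL were 27 and 30 in control and 32 and 32 with YTHDF1, so its gap between groups lies within counting error.

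Paralogues of single subunits were compared next, since several subunits have tissue forms. Complex IV used the widespread forms here. COX4I1 measured 208 to 243 CPM, COX6A1 160 to 189 CPM, COX6B1 76.6 to 83.4 CPM, COX7B 67.7 to 79.5 CPM and COX8A 125 to 170 CPM, while COX4I2, COX6A2, COX7A1 and COX7B2, forms known from lung, muscle or testis, had 0 counts. COX7A2 and COX7A2L, the latter a factor in joining complexes III and IV, were both present at 95.7 to 106 CPM and 78.5 to 91.5 CPM. COX6B2, a form known from testis, measured 1.26 and 4.14 CPM in control and 1.82 and 3.54 CPM with YTHDF1. In complex V all 3 genes for the same rotor c subunit were expressed, ATP5MC3 at 115 to 135 CPM, ATP5MC2 at 62.9 to 83.2 CPM and ATP5MC1 at 58.9 to 66.5 CPM. None of these paralogues had an unadjusted p under 0.05 between the vectors by the edgeR test, against 0.135% of all genes tested. With so low a share the absence of calls does not set the paralogues apart.

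The second comparison asked how the members differed between replicate numbers 2 and 1, with the vector as a covariate. Many members differed more by number than by vector, and complex I subunits of both genomes were among those higher in number 2. At an adjusted p under 0.05 (edgeR quasi-likelihood test, Benjamini-Hochberg), 7 of 13 mitochondrial messages were higher and 0 lower, and 26 of 82 nuclear genes were higher and 15 lower. Over all genes tested 23.0% were higher and 28.7% lower, and the counts by complex below are to be read against these shares. The median log2 difference was 0.20 for the mitochondrial messages and 0.06 for the nuclear genes.

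The mitochondrial messages moved unequally in this comparison, within complexes I and V as well as between complexes. ND2 (log2 difference 0.46, SE 0.06, adjusted p = 0.000102), ND4L (0.41), ND4 (0.39), ND1 (0.35) and ND3 (0.20) of complex I rose in number 2, as did CYTB (0.29) and ATP8 (0.22), the last with an adjusted p of 0.135 in the edgeR test without the vector term. COX1 (0.08, SE 0.05), COX2 (0.10, SE 0.05) and COX3 (0.10, SE 0.05) did not pass the test, nor did ATP6 (0.14, SE 0.05, adjusted p = 0.0615), ND5 (0.09, SE 0.06) or ND6 (-0.04, SE 0.05). The 2 mitochondrial rRNAs went the other way. RNR1, the small rRNA, measured 590 and 181 CPM in control and 466 and 156 CPM with YTHDF1, and RNR2, the large rRNA, measured 4847 and 1837 CPM in control and 4417 and 1554 CPM with YTHDF1. Their log2 differences between numbers were -1.64 (SE 0.05, adjusted p = 3.76e-09) and -1.45 (SE 0.05, adjusted p = 2.15e-08) by the same edgeR test. Whether the yield of the poly(A) selection bears on these rRNA differences was not tested.

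Among nuclear genes of complex I, 15 of 36 were higher in number 2 and 4 lower. NDUFS1, the largest iron-sulfur subunit of the matrix arm, measured 167 and 272 CPM in control and 169 and 269 CPM with YTHDF1. Its log2 difference was 0.69 (SE 0.04, adjusted p = 8.74e-07), with both libraries of number 2 above both of number 1. The 7 nuclear genes of the catalytic core, a grouping made after the values were seen, had a median log2 difference of 0.29, with 6 higher in number 2, among them NDUFS1, NDUFS8 and NDUFS3. NDUFV2, the other core gene, stood at -0.11 (SE 0.05, adjusted p = 0.0894). The other 29 nuclear genes of complex I had a median of 0.06, with 9 higher and 4 lower. NDUFS6, whose promoter is shown above, was among those higher, at 38.6 and 51.3 CPM in control and 40.2 and 51.8 CPM with YTHDF1. NDUFB9, an accessory subunit of the membrane arm, was the lowest at -0.39 (SE 0.05), with 112 and 82.8 CPM in control and 107 and 85.3 CPM with YTHDF1.

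In complex II, SDHA, the flavoprotein that oxidises succinate, rose in number 2 by a log2 difference of 0.51 (SE 0.04, adjusted p = 7.32e-06), from 208 to 291 CPM in control and from 205 to 295 CPM with YTHDF1. SDHB rose by 0.17 (SE 0.05) and SDHC fell by 0.16 (SE 0.05), while SDHD, the other membrane anchor, stood at 0.10 (SE 0.05). The 4 subunits of 1 complex thus moved unequally.

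In complex III 1 gene was higher and 2 were lower of 10. UQCRC2, a core subunit, rose by 0.15 (SE 0.04), whereas UQCRB and CYC1, the cytochrome c1 that hands electrons on, fell by 0.36 (SE 0.05) and by 0.35 (SE 0.05). In complex IV 5 were higher and 3 lower of 13 tested. COX6B2 rose by 1.33 (SE 0.23, adjusted p = 0.000849) at the low levels given above, COX8A by 0.34 (SE 0.06) and NDUFA4 by 0.23 (SE 0.06), and COX4I1 fell by 0.18 (SE 0.04). In complex V 3 were higher and 5 lower of 19. ATP5MPL, a small membrane subunit, fell by 0.42 (SE 0.06), ATP5MF-PTCD1 by 0.39 (SE 0.13, adjusted p = 0.0282) and ATP5F1A, the alpha subunit, by 0.37 (SE 0.04), while ATP5F1B, the beta subunit that pairs with it, rose by 0.11 (SE 0.04). The call of ATP5MF-PTCD1 did not hold under DESeq2's Wald test (adjusted p = 0.112), and its log2 difference was -0.16 without YTHDF1 replicate 1 or replicate 2 and -0.62 without control replicate 1 or replicate 2. ATP5F1A measured 437 and 344 CPM in control and 438 and 332 CPM with YTHDF1, with no overlap between numbers. Of the c subunit genes ATP5MC2 fell by 0.35 (SE 0.05), and ATP5MC1 (-0.10, SE 0.06) and ATP5MC3 (-0.14, SE 0.05) did not pass the test.

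**Figure D5:**
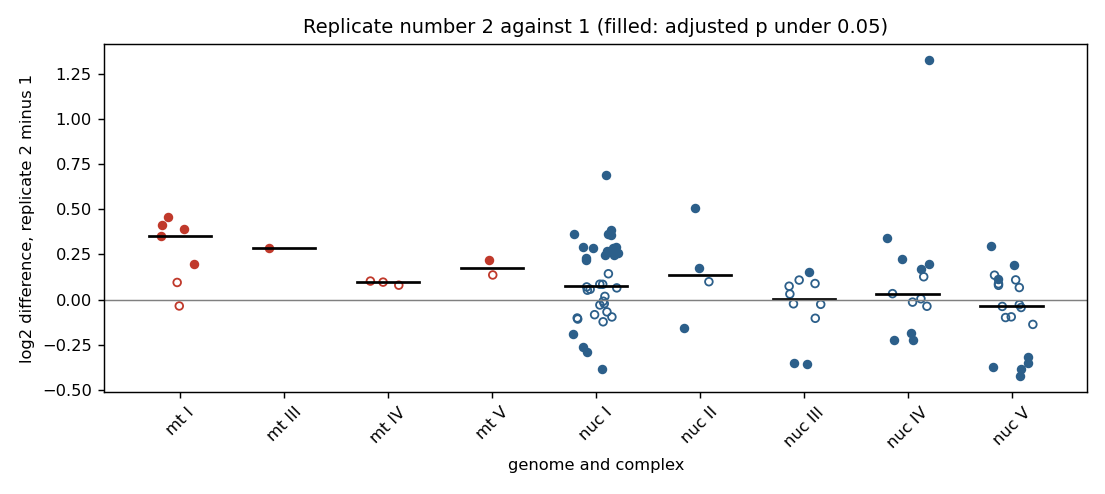
Log2 difference between replicate numbers 2 and 1 (vertical axis) for each tested member by genome and complex (horizontal axis); each point is 1 gene, filled where the adjusted p was under 0.05 and open otherwise, and black lines are medians. Mitochondrial complex I has a median of 0.35 against 0.10 in mitochondrial complex IV, and COX6B2 is the highest point at 1.33.

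A marker of the IFN-γ response moved with the number as well. IRF1, an interferon-induced transcription factor, measured 813 and 1044 CPM in control and 832 and 1078 CPM with YTHDF1. The part of the IFN-γ response in the differences between numbers was not tested, and what set the numbers apart beyond the word replicate is not stated in the labels.

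Genes around the pathway were read from lists written by hand. By the edgeR test of the vectors, 0 listed genes reached an adjusted p under 0.05, as did 0 of all 17781 genes tested. This count therefore does not set the lists apart. The 46 assembly factors tested, proteins that build the complexes, had median log2 differences of 0.02 within replicate 1 and 0.01 within replicate 2, and the 78 mitochondrial ribosomal proteins had -0.0086 and 0.0071. The 15 genes of mitochondrial DNA upkeep and transcription had -0.0083 and -0.03, and the 18 of mitochondrial RNA processing 0.04 and -0.02. Thus none of these 4 lists had a median as low as that of the mitochondrial messages within either number. The mitochondrial tRNAs, cut from the same precursors, were lower within both numbers in 15 of 18 tested and higher within both in 0, against 24.5% and 25.9% of all genes tested, with medians of -0.22 and -0.33, and both rRNAs were lower within both numbers. Their summed levels were 187 and 209 CPM for tRNA in control and 163 and 161 CPM with YTHDF1. Replication-dependent histone messages, which lack a poly(A) tail, were lower within both numbers in 24 of 46 tested and higher in 2, against the same 24.5% and 25.9% of all genes, with medians of -0.27 and -0.14. Whether the yield of RNA with short or no tails bears on the mitochondrial difference was not tested.

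Between replicate numbers 23.0% of all genes were higher and 28.7% lower, and the counts that follow are to be read against these shares. Of the 46 assembly factors 12 were higher and 15 lower at an adjusted p under 0.05 (edgeR), among them FOXRED1 of complex I assembly at 0.57 (SE 0.06) and TMEM70 of complex V assembly at -0.61 (SE 0.06). Of the 15 genes of mitochondrial DNA upkeep and transcription 2 were higher and 9 lower, including the helicase TWNK at -0.45 (SE 0.05) and the topoisomerase TOP1MT at -0.61 (SE 0.06). Of 9 regulators of nuclear respiratory genes 0 were higher and 6 lower. YY1 measured 121 and 71.1 CPM in control and 117 and 69.4 CPM with YTHDF1 (log2 difference -0.76, SE 0.05). NRF1, the factor whose letters are marked in the promoters above, stood at -0.46 (SE 0.08), and GABPB1, the partner of GABPA, at -0.48 (SE 0.08). MTERF1, a mitochondrial termination factor, measured 10.1 and 10.3 CPM in control and YTHDF1 replicates 1 and had 0 counts in both libraries of number 2.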

How the data were processed

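RNA was sequenced from 2 control and 2 YTHDF1 libraries of SNU638 cells. The authors deposited raw read counts per gene, without normalization, for 46427 genes by symbol and NCBI Gene ID. The submitters' processing notes name Trimmomatic, HISAT2 and GRCh38; the counting tool, its strand setting and its treatment of reads with several matches are not given in the sources used here. Mitochondrial DNA has nuclear copies, so such reads could be split.

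The members and lists were chosen with earlier results of these data known. Counts were filtered with filterByExpr (minimum count 10), scaled by TMM and tested with the quasi-likelihood test of edgeR 4.0.16 (limma 3.58.1, R 4.3.3) over 17781 genes, with Benjamini-Hochberg adjustment. Calls between vectors used the study's thresholds, 0.5 on the log2 scale and an unadjusted p of 0.05. SE is the size of the log2 difference over the root of F. CPM uses library sizes after TMM, and log2 CPM within a number a prior count of 0.5. Levels per kb use GENCODE 29 lengths for both genomes. For a nuclear gene this was the median over its protein-coding transcripts, limited to those matched to its RefSeq transcripts where any were. Single values were compared by exact permutation. Intervals and floors cover counting error only, and p-values measure only the spread between these libraries, which the labels call biological replicates without naming separate cultures.

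Named were every mitochondrial member, any member called, the highest and lowest nuclear member per complex, up to 5 members in each direction between replicate numbers, the paralogue families, members failing the filter, read-throughs and up to 4 genes called per list. Alternatives were DESeq2 1.42.0 size factors and Wald test, other filters, other library sizes, NDUFA4 in complex I, the replicate block and each library left out. The procedure was tested on simulated data. Figures used Python 3.11.15 and matplotlib 3.10.9.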

Additional observations from a re-analysis of the deposited data

How the results depend on the processing

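All 13 mitochondrial messages were lower within both replicate numbers under DESeq2 size factors, with the mitochondrial members or YTHDF1 left out of the library size and under both other filters. Genes called over the whole table, 4 higher and 14 lower, became 32 and 50 with no filter on low counts, where more genes are tested. The replicate numbers mark no stated pairing, and same-numbered libraries deviated together (r = 0.875 over all genes, 0.857 over the members). With the replicate block 58 genes were called higher and 134 lower at the fold and unadjusted p thresholds. At any fold, 12 mitochondrial members had an unadjusted edgeR p under 0.05 with the block, all of them lower. Over all 17781 genes tested, 334 lower and 340 higher genes did. Adjustment was passed by 0 of these members (smallest adjusted p 0.0709), against 10 of all genes. Without the block 1 mitochondrial member had an unadjusted p under 0.05, and by DESeq2's Wald test 3 did. Leaving out 1 library gave 2 to 49 genes called higher, 9 to 47 lower and 0 mitochondrial members, a mitochondrial median of -0.34 to -0.058, a nuclear median of -0.051 to 0.045 and a share difference of -1.43 to -0.42 points. In each, a group holds 1 library that is assumed to vary like the rest. ND2 (-0.40 to 0.14), ND3 (-0.18 to 0.029), ND4 (-0.38 to 0.072) and ND4L (-0.41 to 0.050) changed sign without control replicate 2, and ND2, ND3 and ND4L also without YTHDF1 replicate 1. The causes were not tested. Leaving out a library of a comparison between numbers gave values with no test. Depth limits the 6 members under the filter, COX6B2 and UQCRHL.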

Other observations

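Neighbouring routes of energy metabolism were also read between replicate numbers 2 and 1 by the same edgeR test, in which 23.0% of all genes were higher and 28.7% lower at an adjusted p under 0.05. Of 16 citric acid cycle genes 7 were higher and 3 lower at that threshold. OGDH, a subunit of the 2-oxoglutarate dehydrogenase, measured 141 and 199 CPM in control replicates 1 and 2 and 142 and 197 CPM in YTHDF1 replicates 1 and 2, and CS, the citrate synthase, measured 273 and 339 CPM in control and 271 and 330 CPM with YTHDF1. Both enzymes were higher in each library of number 2 than in each of number 1. DLAT was higher as well at 0.48 (SE 0.05), whereas SUCLG2 was lower at -0.36 (SE 0.06).

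Of 20 glycolysis genes 7 were higher and 5 lower, a count for this and each following list that stands beside the same 23.0% and 28.7% of all genes. The glucose transporters went opposite ways. SLC2A1 measured 81.1 and 23.6 CPM in control replicates 1 and 2 and 85.5 and 24.1 CPM in YTHDF1 replicates 1 and 2 (log2 difference -1.80, SE 0.05), whereas SLC2A3 measured 12.9 and 30.1 CPM in control and 12.5 and 29.1 CPM with YTHDF1 (log2 difference 1.22, SE 0.07). HK2, a hexokinase, was lower in number 2 at -0.62 (SE 0.06) and ALDOC, an aldolase, higher at 0.74 (SE 0.05). Of 14 genes of ubiquinone and cytochrome c, the mobile electron carriers, 4 were higher and 4 lower, with COQ10B at 0.35 (SE 0.05) and COQ5 at -0.57 (SE 0.08). Of 18 genes of mitochondrial RNA processing 5 were higher and 5 lower, with PNPT1, a nuclease of the mitochondrion, at 0.35 (SE 0.05) and TRMT10C at -0.32 (SE 0.05). Of 78 mitochondrial ribosomal proteins 15 were higher and 16 lower, and of 46 replication-dependent histone messages 22 were higher and 1 lower.

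Of 3 subunits outside the symbol rule, DMAC2L was higher in number 2 at 0.45 (SE 0.10) and NDUFA4L2 lower at -1.67 (SE 0.61), the latter at 0.0994 to 0.572 CPM.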
